A study of Homo sapiens with 6 samples.

Results

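LURAP1L, KLHL24 and SMIM14 are 3 protein-coding genes about which little is known in tumour cells, and their mRNA was several times more abundant in 143B cells given TPBC-PEG than in cells given PBS. They are 3 of the 60683 rows of the count table and 3 of the 15846 genes with enough reads to be tested. They were chosen by their measured values in this same comparison: a mean of at least 5 CPM (reads per gene scaled to a common library total) after TPBC-PEG and a mean more than 3-fold over PBS. That rise is therefore described with no test. The tests given concern other genes, namely neighbours on the chromosome, relatives, partners, and lists of stress response and FOXO target genes. Some genes of the stress response lists meet the same 2 limits in this comparison, so their calls are only a description.

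143B is an established line of human osteosarcoma cells, a bone tumour. The study, whose title concerns photodynamic therapy and the Hippo pathway, has 3 libraries from cells given TPBC-PEG for 24 h and 3 from cells given PBS, a buffered saline, for 24 h. Photodynamic therapy relies on a compound that forms reactive oxygen species when lit. The sample titles state 3 µM TPBC-PEG and the treatment text states 300 µM, so the dose is uncertain, and the labels do not say whether the cells were lit. The replicates of a group are not said to be separate cultures, so p-values measure the spread between these libraries, which may be technical. The study used a single line, and in bulk RNA fewer cells with a transcript and less of it per cell cannot be told apart.

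LURAP1L encodes a leucine-rich adaptor, the paralogue of LURAP1. LURAP1 is known to link the MRCK kinases, which act downstream of CDC42, to myosin 18A in contractile actin bundles; the role of LURAP1L is less studied. KLHL24 encodes a BTB and kelch domain protein that brings substrates to the CUL3 ubiquitin ligase, and in keratinocytes it is known to control the turnover of keratin 14. SMIM14 encodes a small protein with a single membrane span that resides in the endoplasmic reticulum. The endoplasmic reticulum folds secreted proteins, and its unfolded protein response and the related integrated stress response raise the transcription of chaperones and of amino acid genes when folding fails.

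Library totals ran from 15726323 to 20486584 counts. Of the 15846 genes tested, 33.2% were called by edgeR's quasi-likelihood test (Benjamini-Hochberg adjusted p under 0.05), with 16.2% higher in TPBC-PEG and 16.9% lower. With scaling by library size alone the split was 3213 higher and 1971 lower, against 2574 and 2682. The summed level of 8 mesenchymal and bone markers was 2742 to 2860 CPM in TPBC-PEG and 3047 to 3089 CPM in PBS. Most of this sum is VIM, which averaged 2344.4 CPM in TPBC-PEG and 2577.3 CPM in PBS, so it says little about the bone markers. Of these markers VIM, SPARC and COL1A1 were called lower, RUNX2 and SPP1 were called higher, and ALPL and TWIST1 were not called. COL1A2 was near 0, at 0.0503 CPM in TPBC-PEG and 0.0594 CPM in PBS. Of the haematopoietic markers, PTPRC had 1 read in each TPBC-PEG library and 0 in PBS. CD3E averaged 0.0161 CPM in TPBC-PEG and 0.0210 CPM in PBS. CD14, at 0.607 CPM in TPBC-PEG and 0.911 CPM in PBS, was not called. The endothelial markers PECAM1 and CDH5 summed to 0.0482 to 0.257 CPM in TPBC-PEG and 0.104 to 0.222 CPM in PBS. EPCAM, an epithelial marker, stood at 17.0 CPM in TPBC-PEG and 16.1 CPM in PBS, while KRT14 had no read in any library. The other epithelial markers were near 0, with CDH1 at 0.0825 CPM in TPBC-PEG and 0.0210 CPM in PBS. KRT5 was at 0.0343 CPM in TPBC-PEG and 0.0580 CPM in PBS.

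LURAP1L (ENSG00000153714; chromosome 9, 12775021 to 12822131, plus strand, GRCh38) had 18.6, 21.3 and 17.7 CPM in the 3 TPBC-PEG libraries, against 1.67, 2.83 and 2.27 CPM in the 3 PBS libraries. The groups were far apart: the lowest TPBC-PEG library was 6.26 times the highest PBS library. For all 3 genes the limit of more than 3-fold made a gap between the groups likely. Of the 15846 genes tested, 3499 were higher in TPBC-PEG with no overlap between the groups. These levels rest on 362, 441 and 282 reads in TPBC-PEG and on 32, 51 and 36 reads in PBS. The group means were 19.2 ± 1.86 CPM in TPBC-PEG and 2.26 ± 0.579 CPM in PBS (SD, n = 3 each), an 8.51-fold ratio and a fitted log2 fold change of 3.10 ± 0.14 (SE). Among the 11202 genes at 5 CPM or more in TPBC-PEG, 2 had a larger log2 fold change. Among all 15846 genes tested LURAP1L ranked number 5. High places of the 3 genes follow from the choice by level and fold, and they only describe where each gene stands.

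KLHL24 (ENSG00000114796; chromosome 3, 183635568 to 183684477, plus strand) had 20.4, 21.6 and 17.1 CPM in the TPBC-PEG libraries, against 5.11, 5.60 and 5.68 CPM in the PBS libraries. The groups did not overlap, and the PBS libraries lay close together, with a coefficient of variation of 5.60% where counting alone gives 10.2%. The means were 19.7 ± 2.34 CPM in TPBC-PEG and 5.46 ± 0.306 CPM in PBS (SD, n = 3 each), a 3.61-fold ratio and a log2 fold change of 1.86 ± 0.11 (SE). It ranked number 11 by log2 fold change among genes at 5 CPM or more in TPBC-PEG, and number 31 among all genes tested.

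SMIM14 (ENSG00000163683; chromosome 4, 39546330 to 39639090, minus strand) had 17.6, 20.6 and 15.1 CPM in the TPBC-PEG libraries, against 4.38, 5.54 and 5.11 CPM in the PBS libraries. The groups did not overlap, although the TPBC-PEG libraries varied more than for the other genes, with a coefficient of variation of 15.4%. The means were 17.8 ± 2.74 CPM in TPBC-PEG and 5.01 ± 0.587 CPM in PBS (SD, n = 3 each), a 3.54-fold ratio and a log2 fold change of 1.84 ± 0.12 (SE). It ranked number 12 by log2 fold change among genes at 5 CPM or more in TPBC-PEG, and number 34 among all genes tested. No other annotated gene covers an exon of any of the 3 genes in GENCODE 29, and 0 annotated pseudogenes carry their names.

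**Figure D1:**
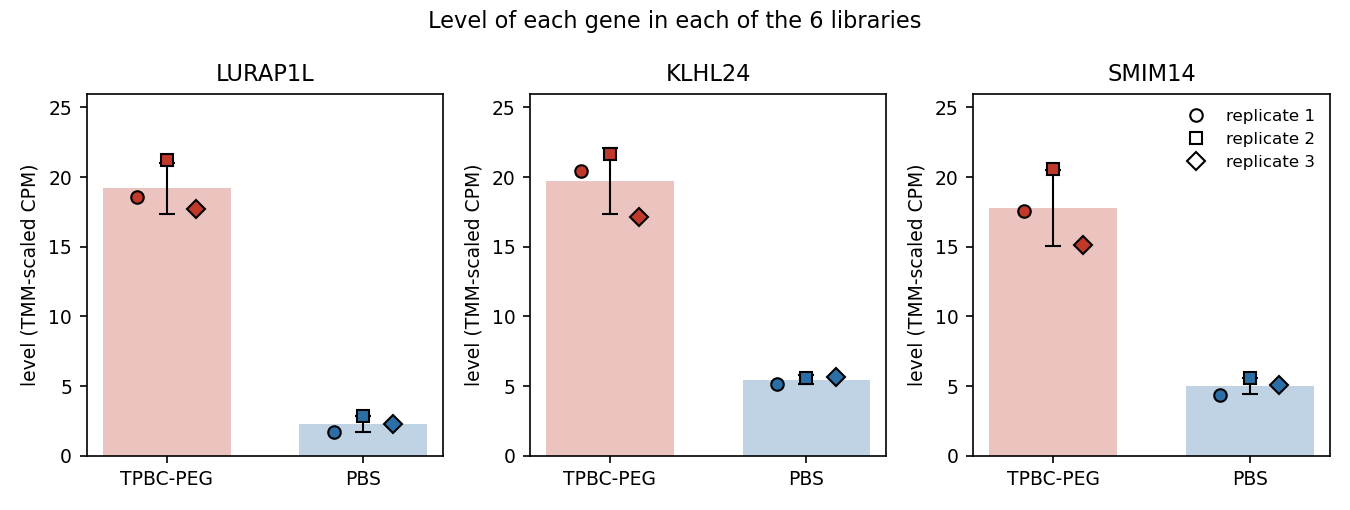
Level of LURAP1L, KLHL24 and SMIM14 (vertical axis, TMM-scaled CPM) in the TPBC-PEG and PBS libraries. Bars are group means, whiskers 1 SD (n = 3) and symbols the libraries; each TPBC-PEG value is above 15 CPM and each PBS value under 6 CPM.

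In all 3 genes TPBC-PEG replicate 2 was the highest library and TPBC-PEG replicate 3 the lowest. The same order was seen in 19.0% of the genes tested and in 34.2% of the genes called higher at 5 CPM or more. The order was also that of 18 of the 23 genes that met both limits of the choice, these 3 included. It was seen in 17 of 18 measured endoplasmic reticulum chaperone and unfolded protein genes and 13 of 22 integrated stress response genes. The corresponding counts were 9 of 23 FOXO target and factor genes, 5 of 30 KLHL genes and 0 of 14 intermediate filament genes. The depth of these libraries has the same order, with 20486584 counts in replicate 2, 19171372 in replicate 1 and 15726323 in replicate 3, and its part in these values was not tested.

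Although their CPM after TPBC-PEG were alike, the genes differ in exon length, with 2132 bases for LURAP1L, 8650 for KLHL24 and 6721 for SMIM14. On a scale of CPM per kilobase of exon, LURAP1L was the most abundant in TPBC-PEG at 9.0 ± 0.872, followed by SMIM14 at 2.64 ± 0.408 and KLHL24 at 2.28 ± 0.27 (SD, n = 3). The LURAP1L libraries, from 8.29 to 9.97, lay above all others, while SMIM14, from 2.25 to 3.06, overlapped KLHL24, from 1.98 to 2.5. In PBS the order was the same, with LURAP1L at 1.06 ± 0.271, SMIM14 at 0.745 ± 0.0873 and KLHL24 at 0.631 ± 0.0354, and each neighbour in that order overlapped the next. By this level LURAP1L stood above 69.1% of tested genes in TPBC-PEG and above 24.3% in PBS. The corresponding shares were 40.2% and 19.1% for SMIM14 and 36.9% and 16.8% for KLHL24.

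The 2 numeric limits were met by 23 genes, of which 20 are protein-coding. LURAP1L stood at place 3 of the 23 by ratio of means, behind MMP3, a matrix metalloproteinase, at 13.9 and the ribosomal pseudogene RPLP0P2 at 8.71, whose reads may be shared with its parent gene. KLHL24 was at place 11 and SMIM14 at place 13. Just inside the 3-fold limit were SESN2, a stress-induced inhibitor of mTORC1, at 3.18 and the non-coding LUCAT1 at 3.21. Just outside it were the hexokinase family gene HKDC1 at 2.98 and TRIB3, a pseudokinase induced by the integrated stress response, at 2.97. With library size alone as the scaling, 28 genes met the limits. The nearest gene under the level limit was TDRKH-AS1, at 3.93 CPM in TPBC-PEG against 1.29 CPM in PBS, a 3.04-fold ratio.

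**Figure D2:**
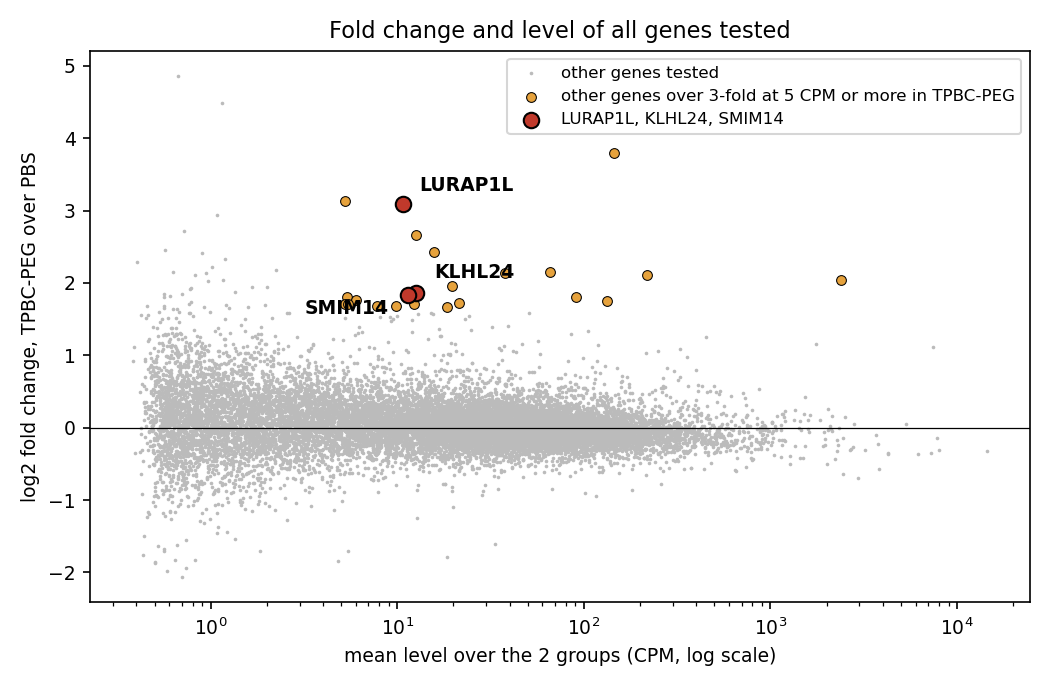
Log2 fold change of TPBC-PEG over PBS (vertical axis) against mean level (horizontal axis, CPM on a log scale) for the 15846 genes tested. LURAP1L, at 3.10, stands apart from most genes at its level, while KLHL24 and SMIM14, at 1.86 and 1.84, lie side by side among the other genes over 3-fold.

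Likeness of pattern was measured over the 6 libraries as the root mean square difference between 2 genes' log2 CPM, each centred on its own PBS mean, among 11320 other genes at 5 CPM or more in a group. This difference takes in the rise by which the 3 genes were chosen, so genes of similar fold change lie near each other by construction. The ranking therefore largely restates fold change. SMIM14 was number 2 for KLHL24 and KLHL24 number 1 for SMIM14, at a difference of 0.076. Their ratios of means were 3.61 for KLHL24 and 3.54 for SMIM14, beside 3.50 for ALDH1L2, 3.36 for HERPUD1 and 3.29 for WIPI1. The gene nearest to KLHL24 was ALDH1L2, a mitochondrial folate enzyme, at 0.0702, followed after SMIM14 by HERPUD1, which serves degradation at the endoplasmic reticulum, at 0.0832. ERO1B, an oxidase for disulfide formation in the endoplasmic reticulum, was number 4 at 0.0883. After KLHL24, the genes nearest to SMIM14 were WIPI1, which acts in autophagosome formation, at 0.0833, HERPUD1 at 0.0931 and ALDH1L2 at 0.12.

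Few genes lay near LURAP1L by this measure, which largely follows fold change. RPLP0P2 was at 0.107, and the next was DDIT3, the gene for the stress factor CHOP, at 0.371. GDF15, a secreted stress cytokine, followed at 0.518 and MMP3 at 0.548. KLHL24 and SMIM14 were at 0.886 and 0.897 from LURAP1L.

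**Figure D3:**
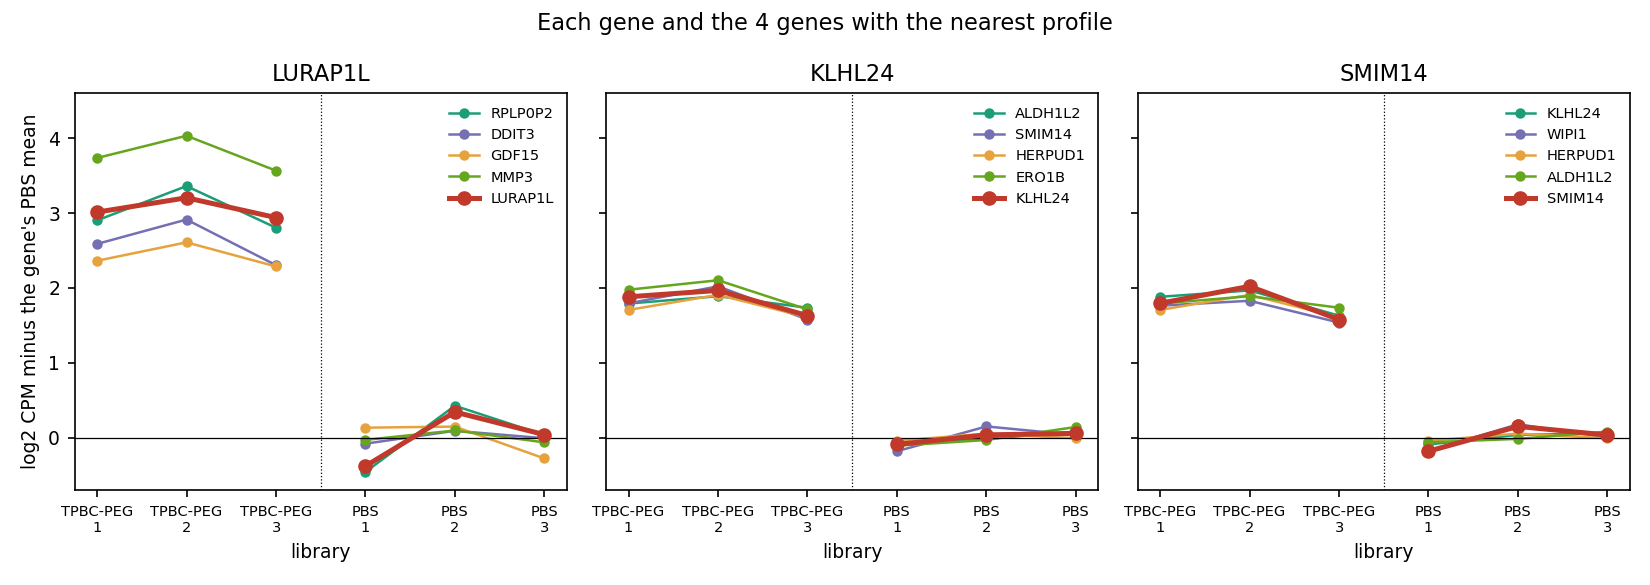
Log2 CPM minus the gene's PBS mean (vertical axis) in the 6 libraries (horizontal axis) for LURAP1L, KLHL24, SMIM14 (thick red) and the 4 genes nearest to each; lines only join the values of a gene within a group. The KLHL24 and SMIM14 panels hold profiles within 0.12 of each, while the genes nearest to LURAP1L, other than RPLP0P2, lie 0.371 or more away.

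The promoter windows below are shown because they allow the stretch upstream of each start to be compared, together with that of LURAP1L-AS1, an antisense neighbour that rose. They run from 250 bases before to 50 after the RefSeq start (GRCh38.p14), each read 5′ to 3′ along the gene, and all 3 genes matched an entry. Both strands were searched for TTGCATCA and TGATGNAAT, forms of the element bound by ATF4 with CEBP proteins that overlap each other, for TGACGTGG, an unfolded protein response element, for GTAAACA, a FOXO motif, for TGACNNNGC, the core of the antioxidant element, and for the longer endoplasmic reticulum stress element (ERSE). Capitals mark every match.
LURAP1L, chr9:12774770-12775069, plus strand: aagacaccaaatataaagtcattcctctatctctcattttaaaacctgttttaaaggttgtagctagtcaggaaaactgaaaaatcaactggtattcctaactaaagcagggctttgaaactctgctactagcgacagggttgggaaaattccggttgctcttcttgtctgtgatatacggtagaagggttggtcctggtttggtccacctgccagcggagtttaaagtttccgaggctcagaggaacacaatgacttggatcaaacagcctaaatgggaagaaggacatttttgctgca
KLHL24, chr3:183635373-183635672, plus strand: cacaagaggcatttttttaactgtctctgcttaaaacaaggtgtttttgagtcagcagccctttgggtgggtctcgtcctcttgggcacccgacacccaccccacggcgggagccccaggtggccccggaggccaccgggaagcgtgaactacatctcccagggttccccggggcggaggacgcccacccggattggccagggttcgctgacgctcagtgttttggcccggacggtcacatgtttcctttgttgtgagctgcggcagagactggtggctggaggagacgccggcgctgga
SMIM14, chr4:39638816-39639115, minus strand: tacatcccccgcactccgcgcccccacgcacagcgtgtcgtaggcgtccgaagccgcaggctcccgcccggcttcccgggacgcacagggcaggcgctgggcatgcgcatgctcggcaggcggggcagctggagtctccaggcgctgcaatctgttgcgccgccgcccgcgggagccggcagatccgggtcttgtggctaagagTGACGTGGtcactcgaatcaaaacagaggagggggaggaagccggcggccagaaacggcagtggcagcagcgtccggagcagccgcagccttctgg
LURAP1L-AS1, chr9:12814340-12814639, minus strand: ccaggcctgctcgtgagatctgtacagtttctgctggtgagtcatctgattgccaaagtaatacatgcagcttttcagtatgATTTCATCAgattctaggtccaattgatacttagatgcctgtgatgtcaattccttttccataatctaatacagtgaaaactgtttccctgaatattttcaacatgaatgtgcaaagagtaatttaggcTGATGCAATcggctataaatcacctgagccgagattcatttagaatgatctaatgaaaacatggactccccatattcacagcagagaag

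The SMIM14 window holds TGACGTGG from base -46 to base -39, counted back from the start, a match found in 0.729% of 35116 promoters of the same length. All positions in these windows are counted from the RefSeq starts, which differ from the outermost GENCODE 29 starts for SMIM14, KLHL24 and LURAP1L-AS1. The LURAP1L-AS1 window holds TGATGCAAT from -39 to -31, which also contains TTGCATCA on the other strand, and an ATTTCATCA from -168 to -160, the other-strand form of TGATGNAAT. TTGCATCA is found in 0.866% of promoters and TGATGNAAT in 0.991%. The windows of LURAP1L and KLHL24 hold none of the motifs searched, which says only that these letters are not in these 300 bases. The window of UGDH, a neighbour of SMIM14 that also rose, holds none of them either. Windows of the other neighbours that rose were not searched. Among the genes most like them, the window of ERO1B holds the ERSE and that of GDF15 holds GTAAACA, both on the other strand. The HERPUD1 window holds TTGCATCA, while those of DDIT3 and WIPI1 hold none of the motifs. No window was found for ALDH1L2 or MMP3, and RPLP0P2 was not looked up. The GTAAACA motif is in 3.42% of promoters, TGACNNNGC in 13.3% and the ERSE in 0.0769%. The windows also differ in composition, with 70.0% GC and 33 CpG dinucleotides for SMIM14, 62.0% and 19 for KLHL24, and 42.3% and 5 for LURAP1L, beside medians of 58.7% and 14 over all promoters.

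The genes around each locus were set by position, and their changes can be tested. Of 80 other annotated genes of the count table within 500 kb, 25 had enough reads. TPBC-PEG was followed by higher levels of 11 of them and lower levels of 2, beside 16.2% and 16.9% of all genes tested. Their median log2 fold change was 0.16, against 0.011 for all genes, and none reached that of the gene it lies beside.

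Beside LURAP1L, the antisense transcript LURAP1L-AS1 also rose. It had 3.34, 4.10 and 2.07 CPM in the TPBC-PEG libraries, against 0.991, 0.72 and 0.757 CPM in the PBS libraries, with no overlap between the groups. Its log2 fold change was 1.95 ± 0.29 (SE; edgeR quasi-likelihood, Benjamini-Hochberg adjusted p = 2.79e-07). It is transcribed from the other strand, starts inside LURAP1L, shares 0 exon bases with it, and has 199 of its 1720 exon bases within the LURAP1L span. Whether counting used the strand is likewise not given in the sources used here. Without strand, reads from unspliced LURAP1L and from this transcript cannot be told apart over those 199 bases. MPDZ, which encodes a scaffold of cell junctions, stood at 94.7 ± 4.03 CPM in TPBC-PEG and 94.7 ± 5.30 CPM in PBS, and did not pass the test. The melanocyte gene TYRP1, on the other side, was at 0.11 CPM in TPBC-PEG and 0.108 CPM in PBS.

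Beside SMIM14, the gene pair UGDH and UGDH-AS1 rose. UGDH, which encodes the dehydrogenase that makes UDP-glucuronate, averaged 73.2 ± 5.40 CPM in TPBC-PEG and 41.1 ± 2.68 CPM in PBS (SD, n = 3 each), a log2 fold change of 0.84 ± 0.060 (SE; edgeR quasi-likelihood, Benjamini-Hochberg adjusted p = 5.38e-16). UGDH-AS1, at 2.52 ± 0.417 CPM in TPBC-PEG and 1.12 ± 0.313 CPM in PBS, rose by 1.18 on the log2 scale, and 2305 of its 2787 exon bases lie within the SMIM14 span on the other strand, where the same limit on strand holds. The divergent transcript SMIM14-DT, which runs from the other strand and whose RefSeq promoter window shares 226 bases with that of SMIM14, had too few reads to be tested, with 11, 14 and 6 in the TPBC-PEG libraries against 1, 5 and 4 in the PBS libraries. Its lowest TPBC-PEG value, 0.376 CPM from 6 reads, was above its highest PBS value, 0.277 CPM from 5 reads. Such a gap was also seen in 3499 of the 15846 genes tested, and at these counts it does not show a rise.

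Further from SMIM14, N4BP2, a gene for a NEDD4-binding protein, averaged 67.7 ± 3.32 CPM in TPBC-PEG and 39.7 ± 1.59 CPM in PBS, a log2 fold change of 0.77. WDR19, a gene of intraflagellar transport, averaged 25.6 ± 1.86 CPM in TPBC-PEG and 15.6 ± 0.583 CPM in PBS, a log2 fold change of 0.71. Other genes of the region did not pass the test: UBE2K, a ubiquitin-conjugating enzyme gene 59.0 kb away, was at a log2 fold change of -0.077, the lipoic acid synthase gene LIAS at 0.087, the ribosomal protein gene RPL9 at -0.061, RFC1 at 0.018, PDS5A at 0.0055 and the unnamed ENSG00000249685 at 0.16. RPL9 passed as lower without PBS replicate 3 (-0.16), and UBE2K with the trend on GC content removed (-0.14). KLHL5, a relative of KLHL24, passed at 0.14, and this call was lost in 7 of 15 alternatives, among them without TPBC-PEG replicate 1 or 2 and without PBS replicate 1 or 3.

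Beside KLHL24, the nearest tested gene did not change detectably. YEATS2, a gene of a histone acetyltransferase complex 13.3 kb away, stood at 111.0 ± 3.74 CPM in TPBC-PEG and 110.6 ± 0.456 CPM in PBS. LAMP3, which encodes a lysosomal membrane protein, averaged 4.49 ± 0.822 CPM in TPBC-PEG and 2.12 ± 0.473 CPM in PBS, a log2 fold change of 1.07 ± 0.21 (SE) and the largest of the tested genes here. The non-coding LINC00888 rose by 0.64 on the log2 scale and B3GNT5, a glycolipid synthesis gene, by 0.41. EIF2B5, which encodes a subunit of the exchange factor that the integrated stress response inhibits, fell by 0.23 on the log2 scale, and AP2M1, a clathrin adaptor gene, by 0.33. MCF2L2 and ABCC5 passed at 0.47 and 0.16. The MCF2L2 call was lost in 6 of 15 alternatives, among them without TPBC-PEG replicate 2 or 3 and without PBS replicate 1 or 3; the ABCC5 call was lost in 4, among them without TPBC-PEG replicate 3 and without PBS replicate 1 or 3. PARL, DVL3 and EIF2B5-DT, at 0.045, -0.021 and 0.24, did not pass. Near LURAP1L the unnamed ENSG00000234740, at 0.792 CPM in TPBC-PEG and 0.414 CPM in PBS, did not pass either, with a log2 fold change of 0.96, and passed without PBS replicate 2 (1.48). KLHL6, a relative of KLHL24 that lies 79.9 kb from it, had a level of 0.0321 CPM in TPBC-PEG and no read in PBS.

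**Figure D4:**
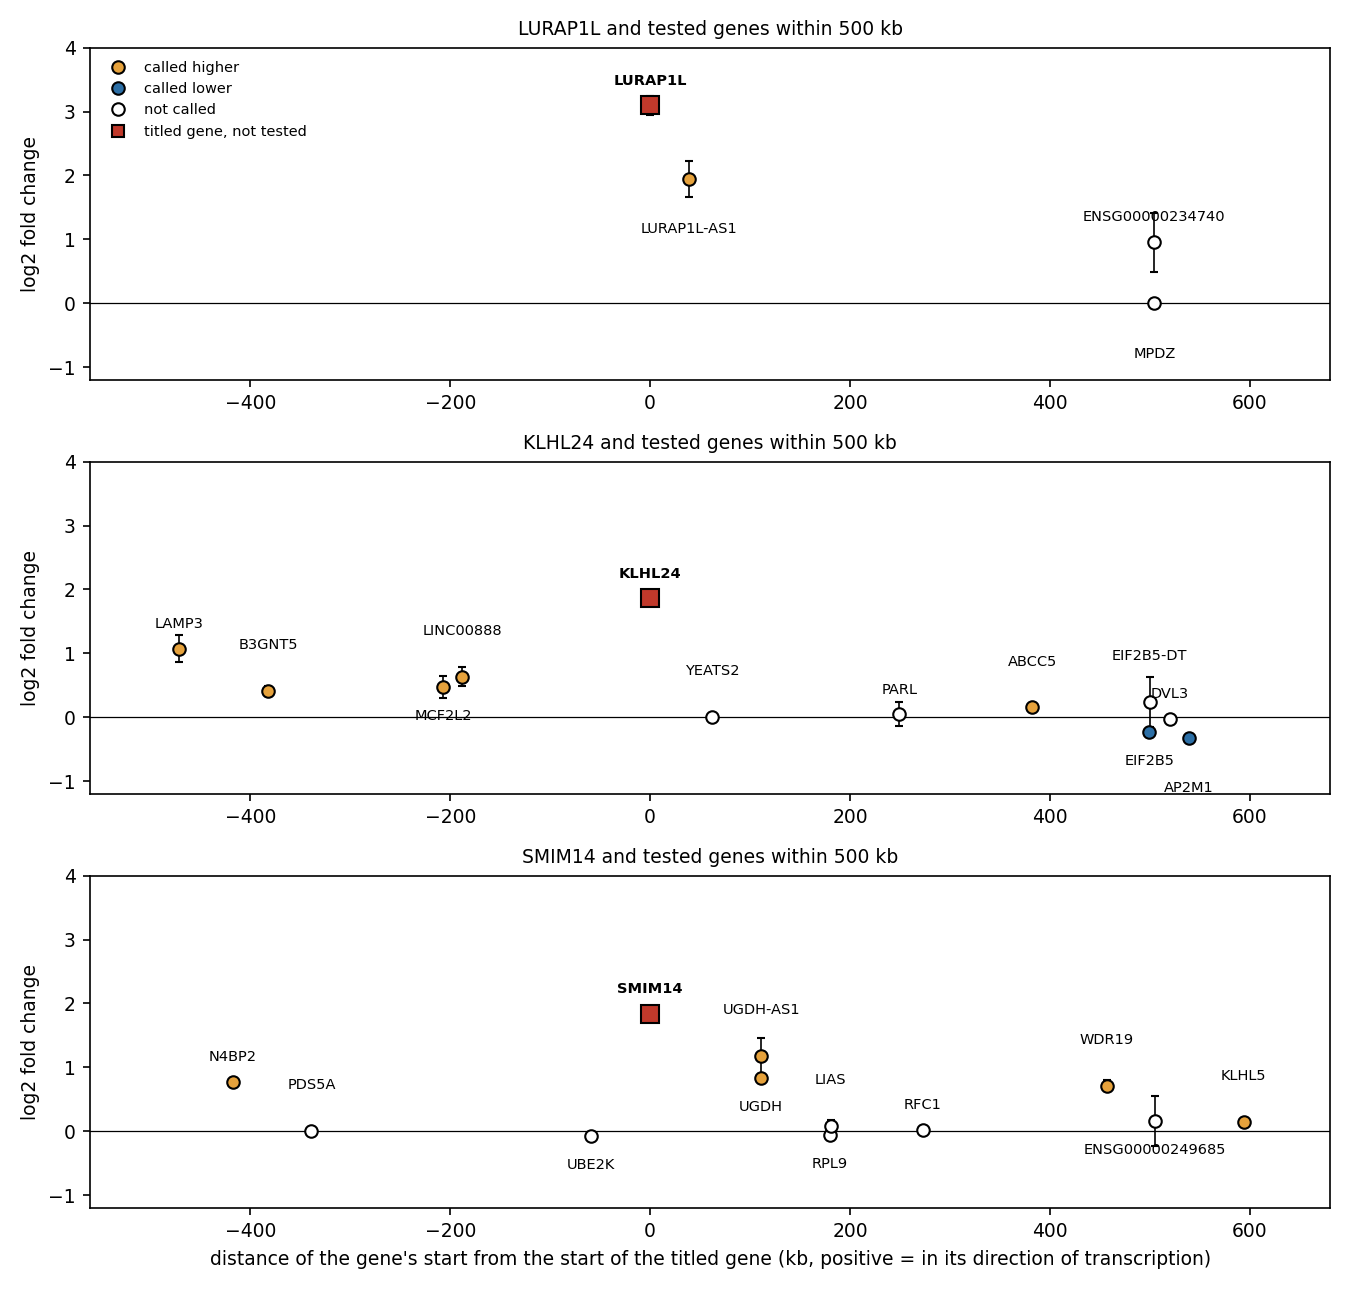
Log2 fold change with its SE (vertical axis) of the tested genes within 500 kb of LURAP1L, KLHL24 and SMIM14, by the distance between gene starts (horizontal axis, kb). Squares are the 3 genes, filled circles neighbours that passed the test and open circles those that did not; among the neighbours LURAP1L-AS1, at 1.95, is the highest, followed by UGDH-AS1 at 1.18.

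Of 41 genes of the KLHL family other than KLHL24, 30 were measured, of which 7 rose, 6 fell and 17 did not pass, with a median log2 fold change of 0.0047 against 0.011 for all genes. These counts are close to the shares of all genes tested, of which 16.2% rose and 16.9% fell. None reached the 1.86 of KLHL24. The largest rise was that of KLHL28, at 26.5 ± 1.05 CPM in TPBC-PEG and 17.5 ± 1.96 CPM in PBS, a log2 fold change of 0.60. KLHL11 rose by 0.54 on the log2 scale. KLHL4 fell by 0.64 on the log2 scale and KLHL13, whose protein serves CUL3 in cell division, by 0.35. KLHL14, at 1.22 ± 0.246 CPM in TPBC-PEG and 2.24 ± 0.569 CPM in PBS, passed at -0.86, a call lost without TPBC-PEG replicate 1 and without PBS replicate 1 or 3. KEAP1, the CUL3 adaptor for the antioxidant factor NRF2, stood at 42.5 ± 2.43 CPM in TPBC-PEG and 47.0 ± 1.36 CPM in PBS and was not called (Benjamini-Hochberg adjusted p = 0.0584 in edgeR). It passed without TPBC-PEG replicate 3 (-0.19) and with DESeq2 size factors (-0.15).

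Of 25 genes of the CUL3 ligase machinery that KLHL24 serves, 2 rose and 10 fell, beside 16.2% and 16.9% of all genes tested, with a median of -0.095 against 0.011. CUL3 itself, the scaffold, was at 163.4 ± 1.51 CPM in TPBC-PEG and 168.9 ± 6.08 CPM in PBS and did not pass, except as lower with the GC trend removed (-0.11). RBX1, the RING subunit, fell by 0.19 on the log2 scale, a call lost without TPBC-PEG replicate 2, without PBS replicate 1 and with library size alone. GPS1 and COPS6, subunits of the COP9 signalosome that removes NEDD8 from cullins, both fell by 0.23. DCUN1D3, which promotes the joining of NEDD8 to cullins, rose by 0.46. DCUN1D2 rose by 0.25, a call lost without TPBC-PEG replicate 1 and without PBS replicate 3. CAND2, an exchange factor of cullin ligases, passed at -0.29, a call lost in 8 of 15 alternatives, among them without TPBC-PEG replicate 1 or 3 and without PBS replicate 1 or 3. With library size alone 4 genes of this list fell in place of 10, and 6 fell without PBS replicate 1 or without PBS replicate 3.

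The keratin that KLHL24 is known for was not detected in 143B cells: KRT14 had no read in any library. Of 24 intermediate filament genes 14 were measured, and 9 of them fell and 0 rose (edgeR; 0 also at an unadjusted p under 0.05, with DESeq2 and with limma-voom), with a median of -0.26. Of all genes tested 16.9% fell and 16.2% rose, with a median of 0.011. The 9 that fell include PLEC, at -0.21, whose product binds such filaments and does not form them. KRT18 averaged 568.1 ± 31.4 CPM in TPBC-PEG and 762.4 ± 18.2 CPM in PBS, a log2 fold change of -0.42. KRT80 was at -0.51. KRT81 was at -0.61, a call lost without TPBC-PEG replicate 2 and without PBS replicate 1. VIM, the vimentin gene, changed less, at -0.14.

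LURAP1, the paralogue of LURAP1L, stood at 1.92 ± 0.529 CPM in TPBC-PEG and 2.41 ± 0.315 CPM in PBS, a log2 difference of -0.32 ± 0.25 (SE) that did not pass the test. A list of 15 measured genes held LURAP1, MRCK kinases and myosins, together with CDC42, ROCK1, ROCK2 and PPP1R12A. Of the 15, 8 fell, CDC42 and PPP1R12A among them, and 1 rose, beside 16.9% and 16.2% of all genes tested. The median of the list was -0.21 against 0.011. The gene that rose was the MRCK alpha gene CDC42BPA, by 0.20, while the MRCK beta gene CDC42BPB was at 0.0072 and the myosin 18A gene MYO18A at -0.21, neither past the threshold. MYL9, a myosin light chain gene, averaged 26.7 ± 1.91 CPM in TPBC-PEG and 42.9 ± 1.96 CPM in PBS, a log2 fold change of -0.68. The myosin genes MYH9 and MYL6 fell by 0.45 and 0.42 on the log2 scale.

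The small integral membrane protein genes share a naming scheme with SMIM14 and not a known ancestry. Of 15 measured genes of this name 0 rose and 1 fell (edgeR; 2 higher and 1 lower at an unadjusted p under 0.05, 0 higher with DESeq2 and with limma-voom), with a median of 0.083 against 0.011 for all genes tested, of which 16.2% rose and 16.9% fell. SMIM30 was the one that fell, by 0.15 on the log2 scale, and its call was lost in 8 of 15 alternatives, among them leaving out any TPBC-PEG replicate and leaving out PBS replicate 1 or 3. The highest log2 fold change of the list, 0.49, was far under the 1.84 of SMIM14.

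Genes of the stress responses moved in the same direction as the 3 genes. All 22 integrated stress response genes and all 18 endoplasmic reticulum chaperone and unfolded protein genes rose, with medians of 1.09 and 0.81 against 0.011 for all genes tested, of which 16.2% rose and 16.9% fell. In both lists 0 fell (edgeR, unadjusted p under 0.05, DESeq2 and limma-voom alike). SMIM14 and KLHL24 stood high in their range: 4 genes of the integrated stress response list and 1 of the chaperone list, HSPA5, had a log2 fold change as large as that of SMIM14. HSPA5 encodes the chaperone BiP and was at 2.04. DDIT3, at 2.67, was the highest of both lists and lay under the 3.10 of LURAP1L. These lists hold genes already known to rise here, so their counts are a description of where the 3 genes stand.

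FOXO factors act when growth factor signals are low. A list of 23 measured genes held genes known to be induced by them and the factor genes FOXO1, FOXO3 and FOXO4. Of these 23, 16 rose and 0 fell in edgeR, beside 16.2% and 16.9% of all genes tested. At an unadjusted p under 0.05, 1 was lower, and 0 were lower with DESeq2 and with limma-voom. The median was 0.36 against 0.011 for all genes tested. The 16 include FOXO3, at 0.47, and FOXO4, at 0.63, while FOXO1, at 0.12, was not called. CCNG2, an atypical cyclin gene, averaged 23.9 ± 2.71 CPM in TPBC-PEG and 9.38 ± 0.52 CPM in PBS, a log2 fold change of 1.36 ± 0.098 (SE). FBXO32, the gene for the ubiquitin ligase subunit atrogin-1, rose by 1.09. PDK4, an inhibitor of pyruvate dehydrogenase, averaged 1.16 ± 0.194 CPM in TPBC-PEG and 0.375 ± 0.0962 CPM in PBS, a rise of 1.59 on the log2 scale. None of the list reached the log2 fold change of SMIM14.

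**Figure D5:**
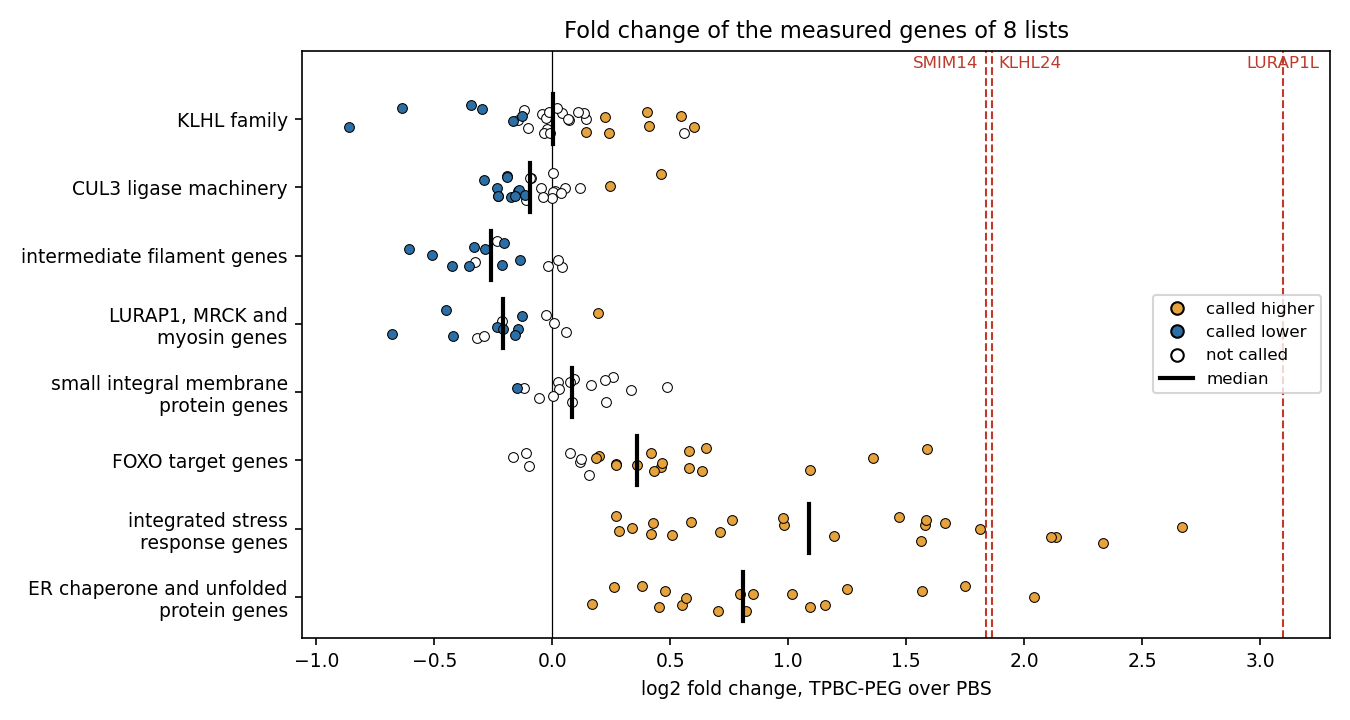
Log2 fold change of TPBC-PEG over PBS (horizontal axis) of the measured genes of 8 lists (rows); filled points passed the test, black bars are medians, and dashed lines mark LURAP1L, KLHL24 and SMIM14. The KLHL, CUL3, filament, myosin and small membrane protein lists reach at most 0.60, and only stress response genes reach the lines of SMIM14 and KLHL24.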

How the data were processed

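Per the submitters' processing notes, reads were aligned with HISAT2 to GRCh38. The authors deposited raw read counts per gene; the counting program, annotation and strand setting are each not given in the sources used here. Of 60683 rows, 42302 had a symbol and 58496 had GENCODE 29 coordinates.

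The counts were tested with edgeR 4.0.16 in R 4.3.3 (filterByExpr, minimum count 10, minimum total 15; TMM; robust glmQLFit and glmQLFTest with the group as the only term), adjusted by Benjamini-Hochberg over 15846 genes and called under 0.05. CPM are TMM-scaled; log2 CPM used a prior count of 2. The code was tested on simulated data. Alternatives used DESeq2 1.42.0, limma 3.58.1 (voom), other scalings and filters, a GC offset (lowess span 0.3), the replicate number as a block and each library left out.

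The 3 genes and 8 lists (208 of 209 entries matched, 162 measured) were chosen with earlier results of these data known. Named were the 3 genes, the 4 genes most like each, every tested gene within 500 kb, up to 3 called genes per list and direction at 1 CPM or more, genes fixed by name, and those at the 3-fold limit. Other list genes and extremes were named after their values were seen. Sequence came from RefSeq. Read counts without molecular identifiers carry more error than counting alone. The result for 1 gene that the rule selected is not reported here.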

Additional observations from a re-analysis of the deposited data

How the results depend on the processing

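Over the 15 alternatives the log2 fold change ran from 2.90 to 3.30 for LURAP1L, from 1.79 to 1.95 for KLHL24 and from 1.71 to 1.93 for SMIM14; these are also the ranges over leaving out each library. The numeric limits were met by 28 genes with library size alone and by 23 with DESeq2 size factors. No called gene named here changed sign under these alternatives. MPDZ, YEATS2, PARL, DVL3, ENSG00000249685, RFC1, PDS5A and CDC42BPB, none of them called, changed sign in some, the widest being ENSG00000249685 at -0.22 to 0.37 and PARL at -0.15 to 0.16 as each library was left out. The small membrane protein list had 2 genes higher and 0 lower with library size alone, 0 lower with DESeq2 and with the replicate number as a block, and 2 lower with the GC offset. It had 0 to 2 higher and 0 to 1 lower as each library was left out. The CUL3 list had 4 lower with library size alone, 1 higher with DESeq2, and 1 to 2 higher and 6 to 13 lower as each library was left out. The FOXO list had 1 lower with the GC offset, and 0 to 1 lower as each library was left out. The causes were not tested.

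Same-numbered libraries showed little shared deviation (r across genes of 0.0034, 0.065 and -0.015). This cannot settle whether the numbers pair the samples, which the labels do not state. With the replicate number as a block, 2531 genes were higher and 2644 lower. At 32 to 51 reads per PBS library, LURAP1L has the least certain baseline of the 3 genes, and transcripts such as SMIM14-DT are below what this depth can test.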
